A study of Mus musculus with 8 samples.

Results

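The 8 genes described here, Cdx2, Elf5, Gata2, Gata3, Tfap2c, Hand1, Tead4 and Plac1, are used to mark or specify the trophoblast lineage of the mouse embryo. They were taken by symbol from the table of normalized read counts, and all 8 were found among its 23337 gene names. The question was which of them are transcribed in mouse embryonic stem (ES) cells, and whether their levels differ between ES cell clones or between an early and a later passage. Wild-type ES cells, of the 129S1 strain per the labels, with GFP in the Rosa26 locus, were kept in medium with leukaemia inhibitory factor (LIF). The study's methods name C57BL6 for some cultured ES cell clones without saying which were sequenced, so the strain is uncertain. The 4 clones (6, 20, 30 and 36) were each sequenced as polyA RNA at passage 6 and at passage 16, giving 8 libraries, 4 for each passage and 2 for each clone. No gene was deleted and no agent distinguished the groups, so passage and clone are the only labelled differences. The clones are independent lines per the series' description, and each gave 1 library at each passage. The spread between libraries therefore mixes clone, passage and library preparation.

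The trophoblast is the outer lineage of the blastocyst, which forms the placenta and which ES cells do not normally enter. Tead4, a DNA-binding partner of the Hippo pathway effector Yap1, acts at the top of the programme. Cdx2 and Gata3 act downstream of it, and Tfap2c, Elf5 and Gata2 work in trophoblast stem cells and their derivatives. Hand1 drives the formation of trophoblast giant cells, and Plac1 is a placental gene on the X chromosome. In GRCm38 (GENCODE), all 8 are protein-coding genes. On the plus strand lie Elf5 at chr2:103411688-103450989, Tfap2c at chr2:172549593-172558622 and Gata2 at chr6:88193891-88207032. On the minus strand lie Gata3 at chr2:9857078-9890034, Cdx2 at chr5:147300805-147307270, Tead4 at chr6:128224288-128300823, Hand1 at chr11:57828705-57832818 and Plac1 at chrX:53069995-53240111.

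The libraries held 21394069 to 34295561 reads assigned to genes. In the table, 5080 names (21.8%) fall into 644 groups such as a gene symbol and the longer symbols made by adding digits to it, and within some groups the counts of a library stand on the line of another name. All 8 genes lie outside these groups. Their lines stood in order with their neighbours in all 8 libraries, but the names alone fix that order. It could therefore not reveal a displaced count. Of the genes beside them in the trophoblast lists, Krt8, Krt7, Sox21, Stk3, Sox2, Rnf2, Trim28 and Parp1 have other means once the lines are put back in order. For ES cell identity, the summed count of 9 marker genes ran from 112230 to 122587 in the 8 libraries, and Pou5f1, the defining pluripotency factor, had a mean normalized count of 25674.

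In all, 7 of the 8 genes passed the minimum mean normalized count of 10, and Elf5 did not. A normalized count is a read count divided by the size factor of its library. Levels were compared between genes per kilobase of the longest annotated transcript, as the mean ± SD over 8 libraries. Tfap2c was by far the highest, at 762 ± 203 normalized counts per kilobase. Tead4 followed at 184 ± 45.6, Plac1 at 122 ± 82.7 and Hand1 at 91.2 ± 24.9. Gata2 stood at 57.4 ± 32.6 and Gata3 at 40.6 ± 16.1. Cdx2 had 13.5 ± 5.59 and Elf5 only 2.30 ± 1.42. Tfap2c was above Tead4, and Gata3 above Cdx2, in 8 of 8 libraries with no overlap of the ranges. The other neighbours in this order overlapped. Plac1 exceeded Hand1 in 3 of 8 libraries only, so their order is not resolved.

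**Figure D1:**
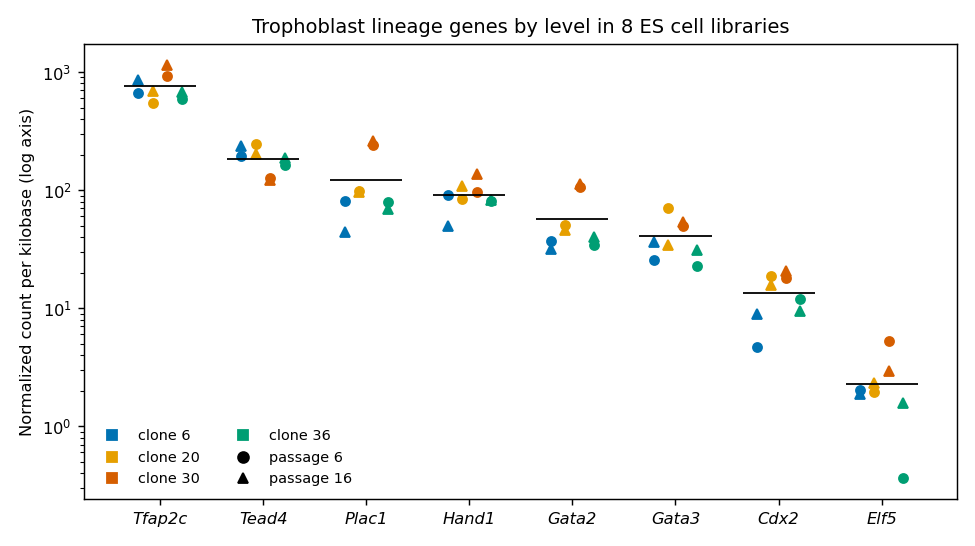
Normalized count per kilobase (log axis) of the 8 genes, ordered by mean. Each point is a library, coloured by clone, with circles for passage 6 and triangles for passage 16, and the black line is the mean of 8 libraries. Tfap2c (mean 762) lies above the others and Elf5 (mean 2.30) below them.

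The members were set against 11077 names with a known length that lie outside the displaced groups and have a mean of at least 10. Tfap2c had a higher level than 79.7% of these names and Tead4 than 49.0%. Plac1 exceeded 40.8%, Hand1 36.1%, Gata2 29.6% and Gata3 25.0%. Cdx2 exceeded 12.8% and Elf5, itself under that minimum, 0.677%. Tfap2c was the one member above most expressed names. Elf5 rested on 64 reads in all 8 libraries, between 1 and 21 a library, and Cdx2 on 257 reads, between 8 and 50. At this depth, small differences in either could not be resolved.

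The 4 promoter sequences below are shown because Gata2 and Plac1, the members with the largest folds between clones among those tested, have promoters of unlike base composition. They are the 250 bases before the annotated starts (RefSeq, GRCm38.p6), written 5′ to 3′ on the gene's strand, with capitals marking each CG dinucleotide. Of the 8 genes, 5 matched an entry of the promoter table. The Gata2 promoters span chr6:88193641-88193890 and chr6:88198414-88198663 on the plus strand, and the Plac1 promoters chrX:53114406-53114655 and chrX:53240111-53240360 on the minus strand.
Gata2 promoter 1: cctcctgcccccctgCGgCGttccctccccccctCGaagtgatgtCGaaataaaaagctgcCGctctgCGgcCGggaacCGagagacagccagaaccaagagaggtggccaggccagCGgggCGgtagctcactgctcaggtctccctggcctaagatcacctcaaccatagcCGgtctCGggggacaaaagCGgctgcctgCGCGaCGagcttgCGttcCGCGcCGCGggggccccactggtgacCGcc
Gata2 promoter 2: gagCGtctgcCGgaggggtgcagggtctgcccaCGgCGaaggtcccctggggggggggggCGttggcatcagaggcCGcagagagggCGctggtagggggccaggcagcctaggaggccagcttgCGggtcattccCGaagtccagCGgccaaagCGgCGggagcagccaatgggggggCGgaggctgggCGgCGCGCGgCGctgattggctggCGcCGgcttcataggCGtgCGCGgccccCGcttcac
Plac1 promoter 1: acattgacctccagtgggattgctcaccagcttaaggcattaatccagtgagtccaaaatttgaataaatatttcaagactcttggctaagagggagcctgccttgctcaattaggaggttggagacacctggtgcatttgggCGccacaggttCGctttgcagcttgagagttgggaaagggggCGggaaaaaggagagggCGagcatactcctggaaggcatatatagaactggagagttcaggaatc
Plac1 promoter 2: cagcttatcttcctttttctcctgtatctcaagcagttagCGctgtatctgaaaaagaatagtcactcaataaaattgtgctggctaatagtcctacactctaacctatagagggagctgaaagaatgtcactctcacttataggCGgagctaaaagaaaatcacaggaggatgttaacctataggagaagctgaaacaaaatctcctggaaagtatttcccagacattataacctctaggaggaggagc
The Gata2 windows hold 22 and 24 CG dinucleotides and the Plac1 windows 4 and 2, against a median of 6 over 32841 promoters of this length. Cdx2 has 13, Gata3 19, and the Elf5 windows 2 and 8. The letters AGATAA, a form bound by GATA factors, were searched on both strands and occur in 9.99% of all promoters, and among these genes once, in the second Plac1 window. GGAATG, a form bound by TEAD factors, is in 12.6% of all promoters and was found in the first Elf5 and the second Gata2 window. GCCNNNGGC, a form bound by TFAP2 factors, is in 13.7% and was found once in Cdx2, once in the second Gata2 window and 3 times in Gata3. Other forms were not searched.

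Among the clones, clone 30 stood apart for most of these genes. Gata2, Plac1 and Tfap2c were each higher in both clone 30 libraries than in any of the other 6. Elf5 was as well, but on few reads, with 10 in clone 30 and 8 in clone 20 at passage 16. It is not among the tested names behind the shares given below, because its mean is under 10. Tead4 was lower in both. Over the 12283 names outside the displaced groups that were tested, clone 30 lay above all 6 others for 9.71% and below them for 10.4%. Clone 30 was thus beyond the other libraries for 20.1% of these names, against 5.66% to 9.82% for the other clones.

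Gata2, a zinc finger factor of trophoblast and blood cells, had normalized counts of 132, 181, 379 and 123 in clones 6, 20, 30 and 36 at passage 6. At passage 16 the same clones had 113, 165, 400.4 and 143. Both clone 30 libraries lay above all others, and the passages of a clone differed by at most 1.17-fold. The mean of clone 30 was 2.72 times that of the other 6 libraries. An exact permutation test over the 105 ways to pair 8 libraries gave p = 0.0190, where the smallest possible is 0.00952. This test, also used for the genes below, has no passage term, and its p-values were not adjusted for the number of genes.

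Plac1, which encodes a secreted or membrane-associated protein of the placenta, showed the same order. It had 96.2, 119, 291 and 94.8 normalized counts at passage 6 in clones 6, 20, 30 and 36. It had 53.5, 117, 315 and 83.0 at passage 16. Clone 30 stood 3.23 times above the mean of the others, with no overlap, and clone 6 at passage 16 was the lowest library. The exact permutation test gave p = 0.0476.

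Tfap2c, an AP-2 factor active in trophoblast and germ cells, had 1984, 1642, 2783 and 1757 normalized counts at passage 6 in the same clone order. At passage 16 it had 2538, 2044, 3445 and 2011. Clone 30 was highest at each passage, at 1.56 times the mean of the others, and the exact permutation test gave p = 0.0857. The higher values of Tfap2c at passage 16 in each clone count as spread within clones in that test. Elf5, an ETS factor kept silent in ES cells, had 6.68, 6.31, 17.2 and 1.18 at passage 6, which are 5, 7, 21 and 1 reads. At passage 16 it had 6.14, 7.65, 9.67 and 5.12, or 7, 8, 10 and 5 reads. The exact permutation test gave p = 0.0190 for Elf5, on these few reads.

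Tead4 went the other way. Its normalized counts were 599, 749.6, 386 and 497 at passage 6, and 729, 624, 377 and 574 at passage 16. Clone 30 was the lowest at both passages, at 0.607 of the mean of the other libraries, and the exact permutation p was 0.0381.

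Cdx2, the homeobox factor of the trophectoderm, had 10.7, 42.3, 41.1 and 27.2 normalized counts at passage 6 and 20.2, 35.4, 46.4 and 21.5 at passage 16. Clone 6 was lowest at both passages, and clones 20 and 30 were above clones 6 and 36 in all their libraries. The exact permutation p was 0.0190. For Gata3, the values were 82.8, 225, 159 and 73.4 at passage 6 and 118, 111, 174 and 100.4 at passage 16. In clone 20 the early library was 2.03 times the late one, so that the first was the highest of all and the second lay among the middle ones. The exact permutation p for Gata3 was 0.267. Gata3 shares 155 exon bases with Gm13256 on the other strand and 77 with 9230102O04Rik on its own, and the use of strand in counting is not given in the sources used here. Hand1 had 174, 159, 183 and 155 at passage 6 and 94.7, 205, 261 and 158 at passage 16, with an exact permutation p of 0.4. Its clones overlapped.

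**Figure D2:**
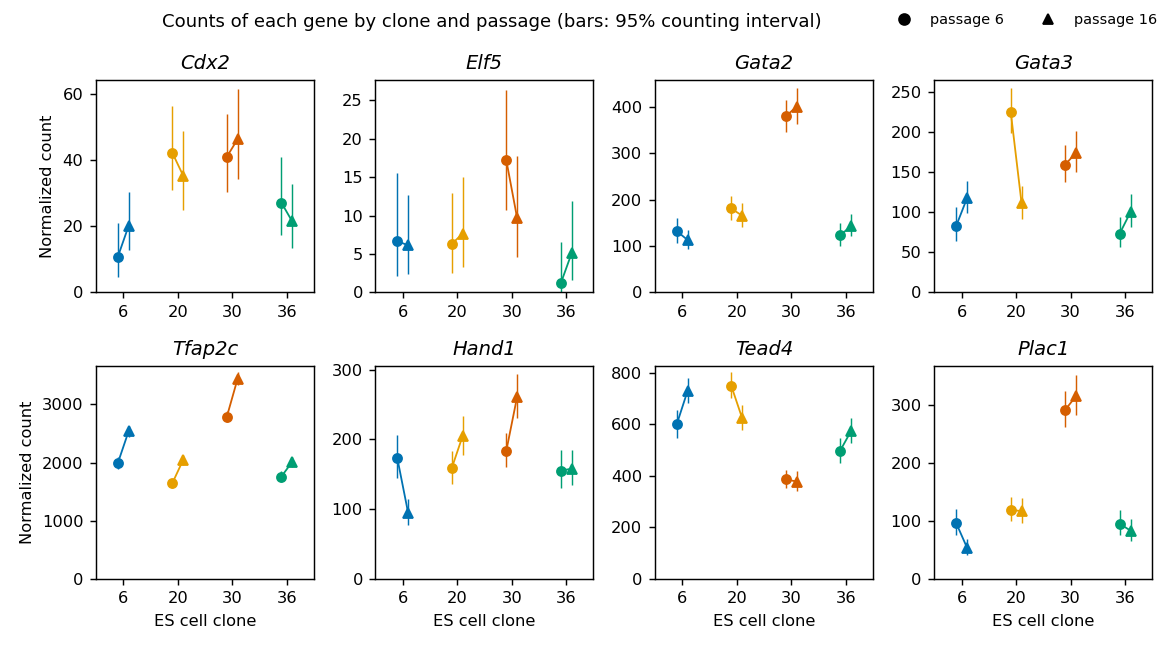
Normalized counts (linear axes from 0) of each gene in each clone, with circles for passage 6, triangles for passage 16 and bars for the exact Poisson 95% interval of the reads, which covers counting error only. Gata2 and Plac1 reach 400.4 and 315 in clone 30 and at most 181 and 119 in the others, and Tead4 is lowest there.

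A limma F test of the clones, with a passage term, was fitted on log2(normalized count + 1) of 14791 names. None of the 7 genes tested passed an adjusted p of 0.05, where 0.135% of all names (20) did. In all, 5 of the 7 (Cdx2, Gata2, Tfap2c, Tead4 and Plac1) had an unadjusted p under 0.05, as did 1587 of all names. The adjusted p in limma was 0.132 for Tfap2c, 0.155 for Gata2, 0.275 for Plac1 and 0.367 for Tead4. It was 0.450 for Cdx2, 0.543 for Gata3 and 0.610 for Hand1. Displaced lines enter that fit. Restricted to the 12283 names outside the groups, limma called 0.505% of names (62), and Tfap2c (adjusted p = 0.0294) and Gata2 (0.0319) passed. Plac1 then had an adjusted p of 0.0617 in limma. In that fit, 5 of the 7 had an unadjusted p under 0.05, against 14.1% of names. On the recovered whole reads of these names, edgeR called 0.594% of names and Tfap2c (adjusted p = 0.0303), Gata2 (0.0297) and Plac1 (0.0483). DESeq2 on all names called 8.22%, with Gata2, Plac1, Tead4 and Tfap2c among them. The clone differences of Gata2 and Tfap2c were thus past the threshold in limma and edgeR on the names in register and in DESeq2 on all names, while limma and edgeR on all names called neither.

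Between passages no member was called without a clone term. In limma, 0 of the 7 genes tested were called, with 0.00676% of all names (1, in a displaced group) past the threshold, and 0 of the 7 had an unadjusted p under 0.05. DESeq2 without a clone term also called 0 of the 8, and edgeR 0 of the 7. For all 8 genes the values of the passages overlapped. The smallest p that an exact permutation test of 4 against 4 can give is 0.0286, and the lowest seen was 0.257, for Tfap2c.

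Tfap2c was the only gene higher at passage 16 in 4 of 4 clones, a pattern held by 8.14% of the names tested. Its mean was 2041 ± 515 normalized counts at passage 6 and 2510 ± 669 at passage 16 (SD, n = 4), a log2 difference of 0.29 (SE 0.22, limma adjusted p = 0.947). With the clone as a block, the limma SE became 0.048 and the adjusted p 0.726. DESeq2 with a clone term called Tfap2c (adjusted p = 8.3e-05), and 0.717% of names with it. No other member was called there. The other log2 differences, passage 16 minus passage 6 in limma, were 0.11 (SE 0.48) for Cdx2, -0.01 (SE 0.48) for Gata2 and 0.01 (SE 0.38) for Gata3. They were 0.01 (SE 0.29) for Hand1, 0.05 (SE 0.26) for Tead4 and -0.23 (SE 0.58) for Plac1. These SEs include the spread between clones. With the clone as a block, the SEs were 0.27 for Cdx2, 0.12 for Gata2 and 0.29 for Gata3. The block SEs of Hand1, Tead4 and Plac1 were 0.26, 0.11 and 0.19.

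**Figure D3:**
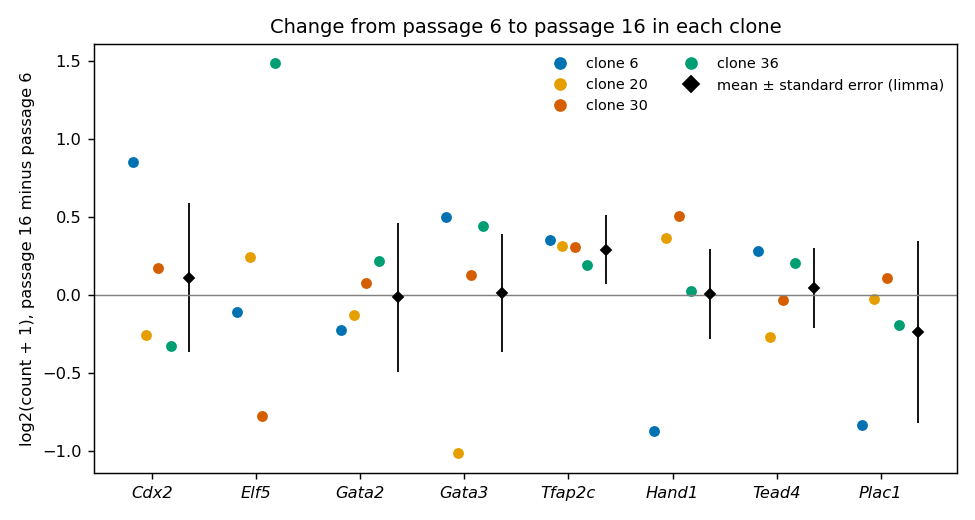
Change of log2(normalized count + 1) from passage 6 to passage 16. Coloured points are the 4 clones. Black diamonds are the limma estimate with its standard error, which was not computed for Elf5. That fit has no clone term, so the bars include the spread between clones. The 4 Tfap2c points lie above 0, and the points of the other genes lie on both sides of it.

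The wider programme was examined in 5 lists. Over all 14791 names in limma, 3.5% had an unadjusted p under 0.05 in the passage test and 10.7% in the clone test. Of 12 other trophoblast transcription factors, 12 were tested and 0 called in either limma test, with an unadjusted p under 0.05 for 1 in the passage test and 2 in the clone test. The most abundant as deposited were Esrrb, also a pluripotency factor, with a mean of 11078 normalized counts, and Tbx3 with 4287. Eomes, a T-box factor of trophoblast stem cells named after its values were seen, averaged 209. Of 14 genes of the trophectoderm epithelium, 0 were called, with an unadjusted p under 0.05 for 1 in each test. Aqp3, a water channel, averaged 4186 and the keratin Krt18 3861, the highest as deposited. With rows in order the keratin Krt8 was higher, at 5907. Of 19 genes of the Hippo pathway and the TEAD cofactors, 0 were called, with an unadjusted p under 0.05 for 2 in the passage test and 7 in the clone test. Tead1 (mean 7354) and Yap1 (6558), the partner of the TEAD factors, were the most abundant. Of 16 genes that hold trophoblast fate in check, led by Trim28 (a mean of 46785 as deposited and 52978 with rows in order) and Pou5f1, 0 were called, with an unadjusted p under 0.05 for 2 in each test. In the limma fit restricted to rows in register, 0 genes of these lists were called as well. With rows put in order, the unadjusted counts for passage and clone became 1 and 8 for the Hippo list. They became 2 and 5 for the genes that hold trophoblast fate in check, against 513 and 2143 of 14641 names. DESeq2 called Tead1 between clones (adjusted p = 5.7e-05).

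Among 20 genes of differentiated trophoblast and placenta, 16 were tested and 0 called. An unadjusted p under 0.05 was seen for 3 in the passage test and 7 in the clone test, and for 4 and 8 with rows put in order. Peg10, an imprinted placental gene, was the most abundant at a mean of 35494, and DESeq2 called it between clones (adjusted p = 0.00018). With rows in order, 6 of the 16 with a mean of at least 10 (Ascl2, Syna, Rhox6, Rhox9, Pparg and Dlx3) were higher in both clone 30 libraries than in the other 6, and 0 were lower in both. Over the names outside the displaced groups these shares were 9.71% and 10.4%. Counted the same way, 1 of 12 other trophoblast transcription factors was higher in both and 2 were lower. These counts were 1 and 2 of 14 epithelial genes and 3 and 0 of 19 Hippo genes. They were 2 and 1 of the 16 genes that hold trophoblast fate in check. The genes with values here were named after these were seen. Dlx3, a homeobox factor of the placenta, had 126 and 121 normalized counts in clone 30 and 29.6 to 44.1 in the other 6 libraries. Rhox9 had 655 and 824 there and 366 to 433 elsewhere, and Rhox6 796 and 891 against 351 to 539. Their adjusted p in the limma fit restricted to rows in register was 0.0750 for Dlx3, 0.0605 for Rhox9 and 0.0760 for Rhox6, so none passed. Tpbpa, a spongiotrophoblast gene, had 0.821 and 7.74 in clone 30 and 4.39 to 60.1 in the others. The prolactin family genes Prl3d1 and Prl7a1 were also low there, with 5.75 and 6.77 and with 0.821 and 3.87 normalized counts, but clone 6 at passage 16 was lower still (5.26 and 0). Prl3b1, Prl2c2 and Ctsq had means under 10, at most 0.967 in either clone 30 library and 0 in clone 6 at passage 16. Synb, a syncytin, had no read in any library.

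**Figure D4:**
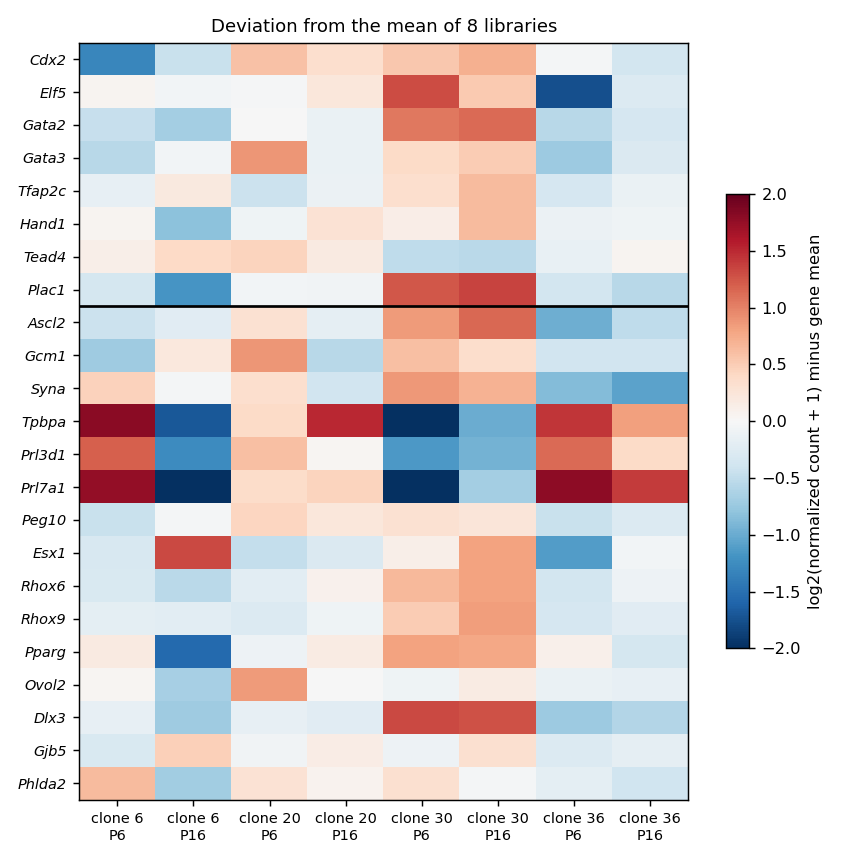
Deviation of log2(normalized count + 1) from the mean of 8 libraries for the 8 genes (above the line) and for the placental genes reported here with a mean of at least 10 (below it), with rows put back in order. Colours are limited to the range from -2 to 2. Clone 30 is red for Gata2, Plac1, Dlx3, Rhox6 and Rhox9 at both passages and blue for Tead4 and Tpbpa.

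Of the marker lists of other cell types, 0 genes were called between clones in limma. An unadjusted p under 0.05 was seen for 5 of 8 primitive endoderm, 0 of 9 mesoderm and 2 of 7 feeder markers tested. With rows put in order these were 7 of 8, 1 of 9 and 4 of 7, against 2143 of 14641 names. The summed count of 8 primitive endoderm markers, among them Gata4 and Gata6, was 16948 to 19570 in clone 30 and 21087 to 56683 in the other libraries, and 7 of its 8 genes were lower in both clone 30 libraries than in the other 6. The mesoderm and posterior embryo markers summed to 356 to 530 over all libraries, and the fibroblast feeder markers to 3890 to 5935, and in both the range of clone 30 overlapped that of the other libraries. In bulk RNA, fewer cells of a type and less RNA per cell cannot be told apart. Whether these shares contribute to the clone differences of the 8 genes was not tested.

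The names whose log2 values followed each gene most closely over the 8 libraries were ranked by Pearson's r, as a description over libraries that share clones and passages. Gata2 was followed by Lrrn4 (r = 0.984), 3830417A13Rik (0.984) and 0610011L14Rik (0.983). Plac1 was followed by 3830417A13Rik (0.987), Itgb5 (0.977) and Gata2 itself (0.972). Gata3 was closest to Lats2, a kinase of the Hippo pathway (0.994), then Nup62cl (0.987) and Slc30a2 (0.970). Tfap2c was closest to Sept9, Dennd1a and Cnot3 (0.987, 0.986 and 0.982), and Tead4 to Clip4, 0610030E20Rik and Ppp2r3a (0.970, 0.955 and 0.947). Hand1 was closest to Pmpca, Sec23b and Ppie (0.958, 0.949 and 0.942), and Cdx2 to Tnfaip6, Trim43b and Dffa (0.962, 0.936 and 0.930). Lats2 ranged from 352 to 623 normalized counts, with its highest value in clone 20 at passage 6, as Gata3 did.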

How the data were processed

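PolyA RNA of 8 ES cell libraries was sequenced as single-end reads, which per the submitters' processing notes and the study's methods were aligned with TopHat 2.0.10 (Bowtie 1.0.0, SAMtools 0.1.19) to GRCm38 and counted with HTSeq 0.5.3p9. The deposited values are a signal: read counts per gene that the authors divided by a size factor per library with DESeq2. The low values are whole multiples of 1 read's worth, and whole reads were recovered for 100% of values (tolerance 0.02). Values were tested as log2(normalized count + 1) in limma 3.58.1 (R 4.3.3), with Benjamini-Hochberg adjustment over names with a mean of at least 10, and recovered reads with edgeR 4.0.16 and DESeq2 1.42.0. Simulated data with 200 changed genes were used as a check. For the passage comparison, 24% of genes with a log2 change of 1 and 100% of those with 3 were called, with 8 false calls. For the clone comparison these were 10% and 100%, with 10 false calls. The passage simulation held no spread between clones, which the real passage test carries. Its recovery can therefore not be carried over to these data.

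Names in the groups with displaced rows were kept as deposited in the main test, and put in order or left out as alternatives. Putting them in order used clone 6 at passage 6 as the reference, so the result is an estimate. Other alternatives were pseudocounts of 0.5 and 10, no minimum mean or one of 100, TMM scaling, no variance trend, the clone as a block or no passage term, and leaving out each library. The rule for named genes takes the 8 members, the 2 most abundant of each list as deposited, and the 3 names closest to each member, of which 1 gene is not reported here. All other genes were named after their values were seen. Clone numbers pair the passages because the labels give the same clone at both. Deviations of same-numbered libraries correlated at r = 0.139, 0.331, 0.792 and 0.567 for clones 6, 20, 30 and 36. For clone 6 the r with another clone was higher (0.381). The members and lists were chosen with earlier results of these data known. The precision rests on 21394069 to 34295561 reads a library. The study's text calls the clones independent, and the passages of a clone are 1 line sampled again. Coordinates and lengths are from GENCODE (GRCm38).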

Additional observations from a re-analysis of the deposited data

How the results depend on the processing

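Between clones, limma on all names called 20 names and 0 of the 8 genes. The counts became 89 names and 2 genes (Gata2 and Tfap2c) with the rows put in order, and 62 and 2 for names outside the displaced groups. They were 73 and 3 with edgeR on those names, an alternative added after seeing the data, and 1123 and 4 with DESeq2. Leaving out 1 library gave 16 to 165 names and 0 of the 8 genes: 109 without clone 6 at passage 6, 165 without clone 6 at passage 16, 36 without clone 30 at passage 6 and 54 without clone 30 at passage 16. Of these names, 85, 139, 32 and 49, in that order, lie in displaced groups. The cause was not tested. Leaving out a library was not run on the names in register alone.

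Between passages, 1 name was called in limma, 0 with rows in order, 0 outside the displaced groups and 44 with DESeq2, of which 39 lie in displaced groups. Leaving out 1 library gave 1 to 13 names and 0 of the 8 genes, and all names called lie in displaced groups. There were 13 without clone 30 at passage 6, 12 without it at passage 16 and 4 without clone 20 at either passage. There were 3 without clone 36 and 2 without clone 6, both at passage 16. The paired fit, with the clone as a replicate block, called 0 names in limma, 0 outside the displaced groups, 2 in edgeR, and 98 names and 1 of the 8 genes (Tfap2c) in DESeq2. The last 3 of these were added after seeing the data.

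The passage difference of some genes changed sign. Gata2 was at 0.012 in edgeR and 0.0086 in DESeq2 on the log2 scale, Gata3 at -0.10 and -0.11, and Trim28 at -0.069 with rows in order. Without single libraries the log2 difference ran from -0.30 to 0.33 for Cdx2, from -0.39 to 0.33 for Gata2, from -0.23 to 0.31 for Gata3, from -0.20 to 0.28 for Hand1, from -0.11 to 0.24 for Tead4 and from -0.72 to 0.14 for Plac1. It ran from -0.80 to 0.063 for Krt18, from -0.0027 to 0.11 for Yap1, from -0.059 to 0.23 for Peg10, from -0.10 to 1.85 for Trim28 and from -0.097 to 0.0052 for Pou5f1. For Tfap2c it stayed positive, from 0.13 to 0.45. These fits used the counts as deposited, in which Trim28 has displaced lines. Over all 8 libraries its difference was 1.34 (SE 1.26) as deposited and -0.069 (SE 0.079) with rows in order. The order of levels per kilobase was the same with the union of exons as the length. Depth limits Elf5 (1 to 21 reads) and Cdx2 (8 to 50).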

Other observations

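Of 14 genes of the trophectoderm epithelium, examined after their values were seen and with rows put in order, 9 were lowest in clone 6 at passage 16 and 5 (Fgfr2, Cdh3, Dsp, Atp1b1 and Aqp3) were not. Over the names outside the displaced groups, 17% were lowest in that library. Aqp3 had 5386 normalized counts there, below clone 30 at passage 16 (6203) and above the other libraries. Krt8 had 1571 normalized counts in that library and 5099 to 7960 in the other 7. Krt18 had 884 there and 3385 to 5323 elsewhere. Krt19 had 255 against 1020 to 1624, and Krt7 202 against 487 to 944. The claudin genes Cldn4 (865 against 1432 to 2662) and Cldn6 (470 against 780 to 1828) followed the same order. Of the 8 members, Gata2, Hand1 and Plac1 had their lowest values in this library, and Cdx2, Elf5, Gata3, Tfap2c and Tead4 did not. Eomes, by contrast, was lowest in clone 30, with 112 and 138 normalized counts against 156 to 343 in the other 6 libraries. No test was run on this choice of genes.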
